A study of Mus musculus with 6 samples.

Results

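The miR-34 family was followed through 2 probes of a mouse miRNA array, those named mmu-miR-34a and mmu-miR-34c (the main strands, without a star), out of 1096 mouse miRNA probes on each array. Total RNA of liver was hybridised to 6 one-colour arrays, 1 per sample. STAM mice carry the C57BL6 background, receive streptozotocin (STZ, which destroys insulin-producing cells) and a high-fat diet, and develop non-alcoholic steatohepatitis (NASH) and then liver cancer (hepatocellular carcinoma, HCC), which the labels place at 18 weeks of age. The groups were HCC of STAM mice (n = 3, labelled HCC 1, 2-1 and 2-2), non-tumour liver of STAM mice (NT, n = 2) and normal liver of a C57BL6 control mouse (n = 1), for which the labels give neither an age nor a diet. The labels name no engineered allele, and all STAM samples share the chemical and dietary treatment. The labels do not say that HCC 2-1 and 2-2, or NT and HCC of the same number, came from separate animals, so p-values measure only the spread between these samples. Each sample is bulk tissue, in which fewer cells of a type and less RNA per cell cannot be told apart.

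MiR-34a, miR-34b and miR-34c are known as direct transcriptional targets of the tumour suppressor p53. They bind mRNAs of cell cycle and survival genes such as Cdk6, Ccnd1, Met and Bcl2 through their seed, the bases 2 to 8 from the 5′ end, and miR-34a is also known to repress Sirt1 in fatty liver. MiR-34a is broadly expressed, whereas miR-34b and miR-34c come from 1 shared transcript known from testis and multiciliated epithelium, as are the miR-449 miRNAs with the same seed.

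The mature sequences held by the RefSeq table (build GRCm38.p6) are shown because a shared seed makes these miRNAs 1 targeting family, while the bases that follow differ. Whether the probes tell these miRNAs apart was not tested. Capitals mark the seed:
miR-34a-5p: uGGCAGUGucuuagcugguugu
miR-34b-5p: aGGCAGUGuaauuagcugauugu
miR-449a-5p: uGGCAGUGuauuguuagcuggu
miR-449c-5p: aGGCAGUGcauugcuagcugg
These 4 were the only ones of 1679 mature mouse sequences in that table with the seed of miR-34a. MiR-34c-5p and miR-449b-5p have no mature entry in that table, so their seeds were not compared and they are named only. Set base against base from the 5′ end without gaps, miR-34a-5p shared 15 of 22 bases with miR-449a-5p, 12 of 21 with miR-449c-5p and 11 of 22 with miR-34b-5p. Such a count makes no allowance for an inserted base, so it does not rank these relatives by likeness.

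The opposite arm of the miR-34a hairpin, miR-34a* on the array, has another seed and is shown for that contrast, beside the star arms of the other members:
miR-34a-3p: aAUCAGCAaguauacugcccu
miR-34b-3p: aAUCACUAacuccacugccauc
miR-34c-3p: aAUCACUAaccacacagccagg
The seeds of miR-34b-3p and miR-34c-3p were identical. Both arms of miR-34a, in capitals, lie in a hairpin of 102 bases on the plus strand, at chr4:150068454-150068555:
Mir34a hairpin: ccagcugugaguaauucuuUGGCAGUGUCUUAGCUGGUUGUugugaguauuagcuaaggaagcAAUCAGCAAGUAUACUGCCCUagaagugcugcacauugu
No other gene of the RefSeq annotation overlaps Mir34a. Mir34c (chr9:51103034-51103110) and Mir34b (chr9:51103562-51103645) lie 451 bases apart on the minus strand, and both overlap the annotated spans of Btg4 and Hoatz. Mir449a, Mir449b and Mir449c lie on chromosome 13 and overlap the span of Cdc20b.

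Spots are given as the scanner's pixel median, and as a log2 intensity after background correction and quantile normalization between arrays. A spot counted as above background where it exceeded the mean of the array's blank spots plus 2 SD; this threshold lay between 14.5 and 20.7. From 403 (normal liver) to 540 (HCC 2-2) of the 1096 mouse probes passed it. Of 39 probes for miRNAs of mouse herpesviruses, 10 to 19 passed too, so that passing does not by itself show that a miRNA was present. In all, 613 mouse probes passed on at least 2 arrays and were tested, both members among them. Each of 3 chips carried a pair of arrays. Chip 1 held normal liver and NT 1, chip 2 held NT 2 and HCC 1, and chip 3 held HCC 2-1 and 2-2. The scanner ran at a gain of 38 on normal liver and both NT, and higher on every tumour (41 on HCC 1, 39 on HCC 2-1 and 2-2). Tumour tissue and gain cannot be told apart. MiR-122, the defining miRNA of hepatocytes, was bright in all groups, at a log2 intensity of 12.38 for normal liver, 12.52 ± 0.19 for NT (SD, n = 2) and 12.21 ± 0.54 for HCC (SD, n = 3).

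MiR-34a was the only probe of the family above background on all 6 arrays. The normal liver spot measured 52, the NT 1 and NT 2 spots 207 and 172, and the HCC 1, 2-1 and 2-2 spots 206, 82 and 154, against blank means of 12.5 to 17.6. The spot in normal liver was thus the dimmest, that of HCC 2-1 the next, and both NT spots and HCC 1 the brightest. Net of the blank level, miR-34a was at 38.8 in normal liver, 177 ± 25.2 in NT (SD, n = 2) and 132 ± 61.2 in HCC (SD, n = 3). On every array its spot was brighter than all blank spots, and 1 of the 39 herpesvirus probes was brighter still.

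**Figure D1:**
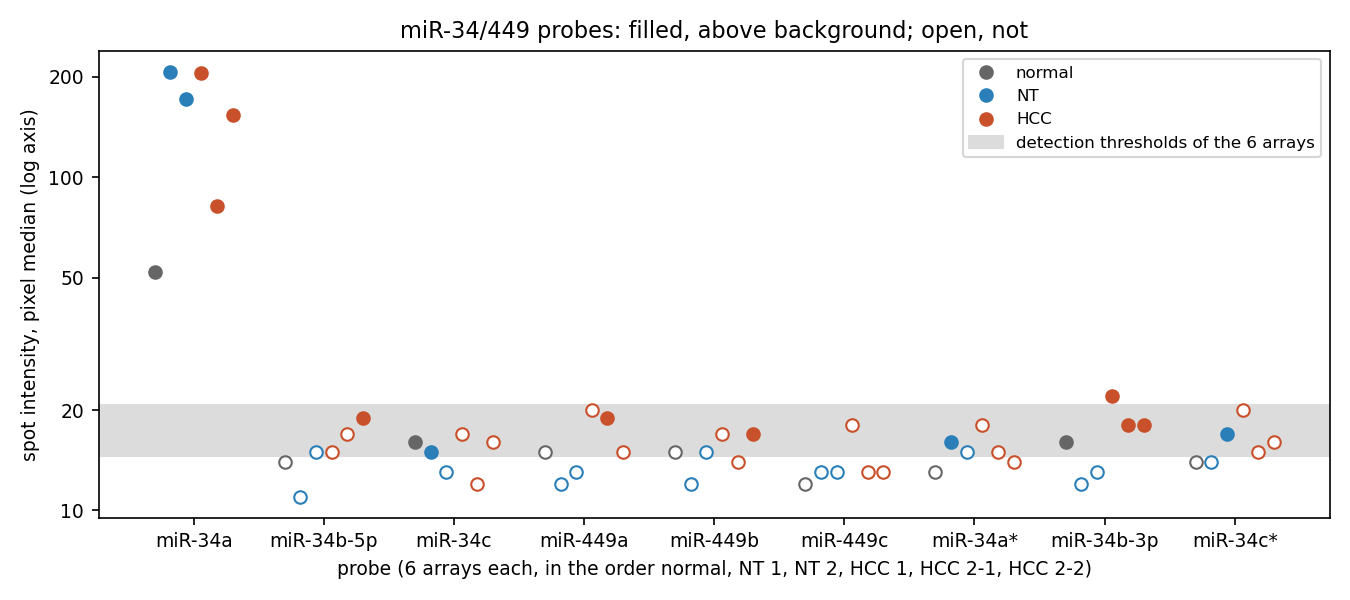
Spot intensity (pixel median, logarithmic axis) of the 9 probes of the miR-34 and miR-449 families on each of the 6 arrays, grey for normal liver, blue for NT and orange for HCC, filled where above that array's background and open where not; the grey band spans the detection thresholds of the arrays. MiR-34a lies between 52 and 207, and all other probes between 11 and 22.

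The other probes of the family lay at the level of the blank spots. MiR-34c had spots of 16 in normal liver, 15 on the NT 1 array, 13 on NT 2, 17 on HCC 1, 12 on HCC 2-1 and 16 on HCC 2-2. It was above background in normal liver and NT 1 and on none of the 3 HCC arrays, though the HCC 1 spot was its brightest; the blank spots of HCC 1 were brighter too. Net of the blank level, miR-34c never exceeded 2.79. Between 8 and 39 of the 39 herpesvirus probes were brighter than miR-34c, depending on the array. Between 0.715% and 95.5% of blank spots lay below it. MiR-34c passed the filter through the 2 arrays just named, and on none of the 6 was it clear of the blanks.

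Among seed relatives, miR-34b-5p was above background on 1 of 6 arrays (HCC 2-2, spot 19), miR-449a on 1 (HCC 2-1, spot 19), miR-449b on 1 (HCC 2-2, spot 17) and miR-449c on 0. The relatives known from multiciliated epithelium thus passed on 2 of 6 arrays at most. Their spots did not follow miR-34a: on NT 1, where miR-34a was at 207, miR-34b-5p, miR-449a and miR-449c were at 11, 12 and 13. Of the star arms, miR-34a* passed on 1 array (NT 1, spot 16), miR-34c* on 1 (NT 2, spot 17) and miR-34b-3p on 4 (normal liver and the 3 HCC arrays, spots of 16 to 22). MiR-34b-3p, the star arm that passed on enough arrays to be tested, was at 5.85 in normal liver, 5.74 on the NT 1 array, 5.74 on NT 2, 5.81 on HCC 1, 5.79 on HCC 2-1 and 5.81 on HCC 2-2 (log2 intensity). Its HCC arrays lay above both NT arrays, by 0.06 (SE 0.03, limma's adjusted p 0.597). A separation of this kind was seen for 10.9% of the 613 tested probes with HCC higher and 12.7% with HCC lower. As miR-34b-3p passed the filter through normal liver and HCC and on 0 of 2 NT arrays, the filter favoured this direction, and nothing is read from it.

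The authors' processed values of the same arrays, which are linear, with about the blank level subtracted and a median of 25 per array, put miR-34a at 219 in normal liver. The NT 1 and NT 2 values were 1162 and 811, and those of HCC 1, 2-1 and 2-2 were 719, 310 and 592. The group means were 986 ± 248 in NT (SD, n = 2) and 540 ± 209 in HCC (SD, n = 3). On this scale both NT arrays lay above all 3 HCC arrays, and normal liver, a single array, lay below every STAM array. The separation of NT and HCC, with HCC below NT, was seen for 17.2% of the 348 tested probes that have these values on all arrays, and the opposite one for 9.48%. For normal liver no such share was computed. The median of these probes was itself higher than in normal liver by 0.33 in NT and 0.32 in HCC (log2), so its low place alone says little. MiR-34c has a processed value in normal liver (7.85) and HCC 2-2 (9.86) alone. Processed values below 50 followed the scanner's spots less closely (r of 0.807 to 0.880 across probes, against 0.99996 or more over all), so no order is read from these values of miR-34c.

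After quantile normalization, miR-34a was at 6.86 in normal liver, 8.09 on the NT 1 array, 7.64 on NT 2, 7.83 on HCC 1, 6.82 on HCC 2-1 and 7.22 on HCC 2-2 (log2 intensity). Here HCC 1 lay between the NT arrays, and HCC 2-1 lay at the level of normal liver. The order of the groups, NT before HCC before normal liver, was the same on both scales. After quantile normalization the levels were 7.87 ± 0.32 in NT (SD, n = 2), 7.29 ± 0.51 in HCC (SD, n = 3) and 6.86 in normal liver. The NT and HCC arrays overlapped, and normal liver, a single array, has no spread of its own. The order is therefore not read as a difference. Quantile values follow the rank of a spot on its array, and miR-34a stood at rank 90 in normal liver, 51 and 61 on NT 1 and 2, and 57, 95 and 73 on HCC 1, 2-1 and 2-2.

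**Figure D2:**
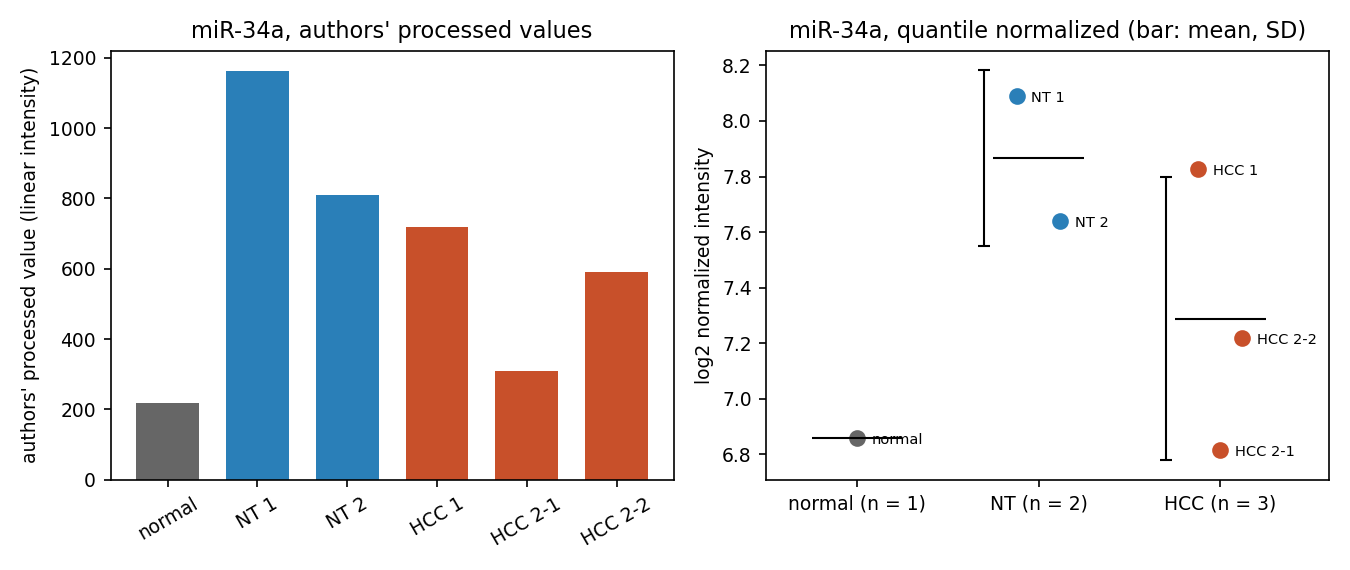
MiR-34a on each array: left, the authors' processed values (linear intensity, 1 bar per array); right, log2 intensity after quantile normalization, with a dot per array, a horizontal line at the group mean and a vertical bar of 1 SD beside it. Left, both NT bars (1162 and 811) exceed the highest HCC bar (719); right, HCC 1 (7.83) lies above NT 2 (7.64).

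NT was set against normal liver to see how non-tumour STAM liver differs from that of a control mouse. MiR-34a was higher on both NT arrays than in normal liver, by 1.01 on the log2 scale (SE 0.45, 95% interval -0.18 to 2.19), which is 2.01-fold. It did not pass limma's test (unadjusted p 0.0794, Benjamini-Hochberg adjusted p 0.434 over 613 probes). Of all tested probes 0.163% passed, that is 1 probe, and 12.6% had an unadjusted p under 0.05; the difference of miR-34a was the fifth highest. With the single normal array the 2 NT arrays lay above it for 36.7% of tested probes and below it for 35.1%, so position alone says little. The fold is compressed, because the offset of 50 added in the background correction exceeds the net signal of 38.8 in normal liver. In the authors' processed values, which were tested without an offset, NT 1 was 5.32-fold and NT 2 3.71-fold above normal liver, a log2 difference of 2.15 (SE 0.53, limma's adjusted p 0.0879). The unadjusted p was 0.00328, and the median of the 348 probes on that scale was itself shifted by 0.33. MiR-34c differed by -0.02 (SE 0.07, limma's adjusted p 0.933), which is a difference between values at the blank level.

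HCC was compared with NT to see what sets tumours apart from non-tumour tissue under the same treatment. The miR-34a level was lower in HCC by a mean of 0.58 on the log2 scale (difference -0.58, SE 0.33, 95% interval -1.46 to 0.30), with overlapping arrays and limma's adjusted p of 0.691. Here 0% of the 613 tested probes passed, while 56 had an unadjusted p under 0.05 (9.14%); that of miR-34a was 0.150. The range among the 3 tumours was wider than the mean difference from NT: HCC 1 lay 1.01 above HCC 2-1, and HCC 2-2 lay 0.40 above HCC 2-1 on the same chip. The residual SD of miR-34a over the 3 groups, 0.45, was the fifth largest of the 613 tested probes, whose median was 0.05; most of these are dim and compressed by the offset. In the authors' processed values the difference of HCC minus NT was -0.93 (SE 0.39, limma's unadjusted p 0.0442 and adjusted p 0.441).

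Only chip 2 held both tissues, and there the direction depended on the scale. HCC 1 minus NT 2 was 0.19 after quantile normalization, while the authors' processed value of HCC 1 was 0.886 times that of NT 2. On chip 1, NT 1 lay 1.23 above normal liver (log2 intensity). The difference of NT and normal liver was thus seen on both scales within chip 1, and a lower level in HCC on one of them within chip 2. Each rests on a single pair of arrays. HCC 2-1 and 2-2 lie on chip 3 without any NT array. Without HCC 1 the difference of HCC minus NT was -0.85 (adjusted p 0.570), and without HCC 2-1 it was -0.34 (adjusted p 0.887). Without NT 1 it was -0.35 (adjusted p 0.977).

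The call on miR-34a depended on how arrays were scaled. With a median or an upper quartile taken over the 282 probes above background on every array, miR-34a was called lower in HCC than in NT, at -0.57 and -0.70 (limma's adjusted p 0.0110 and 0.00460). It was also called higher in NT than in normal liver with both, at 1.16 and 0.94 (adjusted p 2.67e-05 and 0.0103). Relative to the median of all tested probes these differences were -0.43 and 1.29 with both scalings. Such scalings add 1 constant to all log2 values of an array, dim probes included. Limma's prior then had 64.9 degrees of freedom with median scaling and infinitely many with the upper quartile, which pools the variance over probes, against 1.63 after quantile normalization. The SE of miR-34a for HCC minus NT then fell to 0.15 and 0.17, from 0.33. With the median taken over all mouse probes, an alternative added after the data were seen, the prior had 1.72 degrees of freedom, the difference was -0.40 (SE 0.30) and the adjusted p 0.744.

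**Figure D3:**
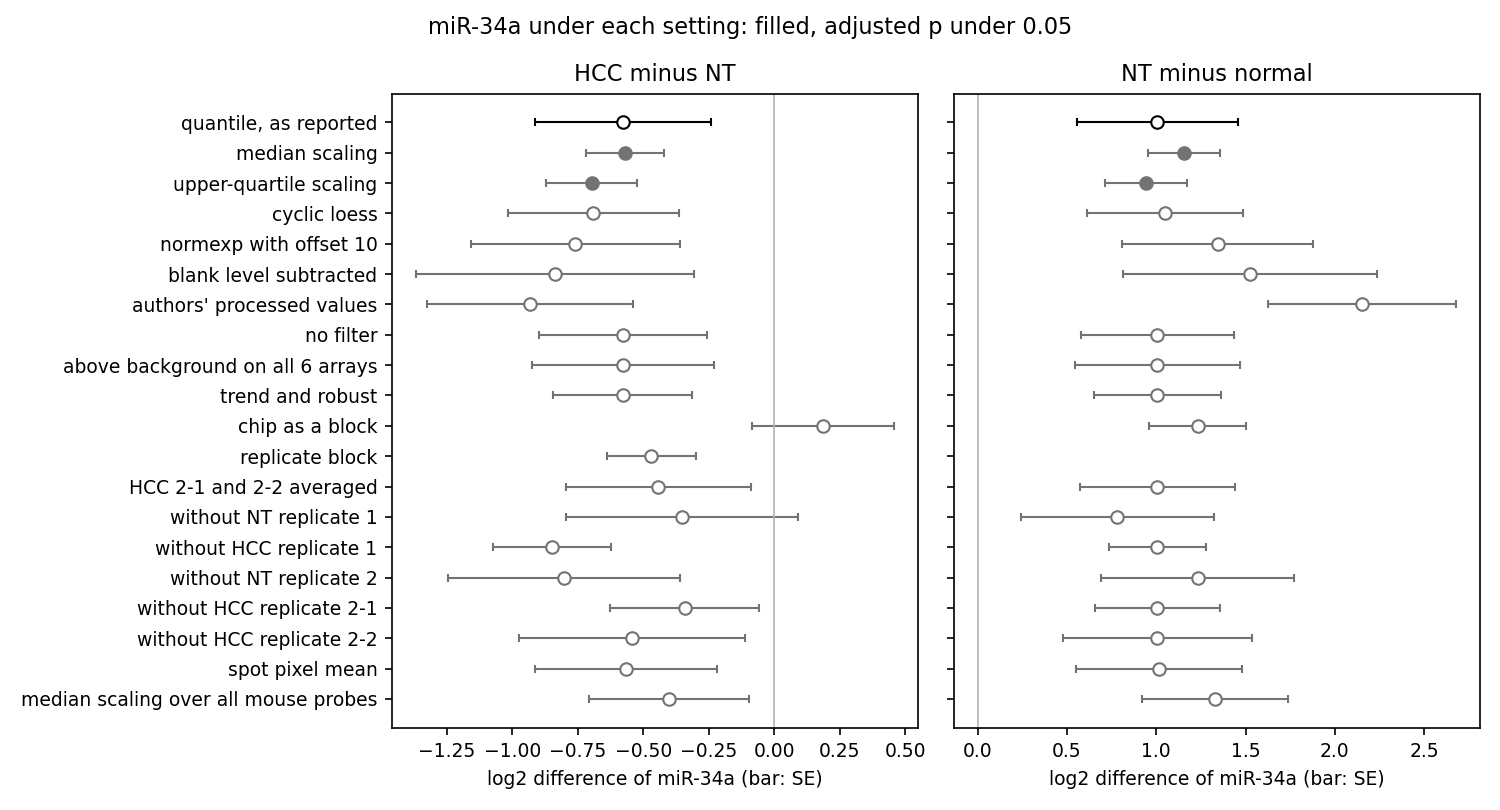
Log2 difference of miR-34a for HCC minus NT (left) and NT minus normal liver (right) under each setting, with 1 SE as the bar; filled dots passed an adjusted p of 0.05 and open dots did not. On the left the dots lie below 0 except with the chip as a block (0.19); on the right they lie between 0.78 and 2.15.

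Set against normal liver, miR-34a in HCC differed by 0.43 (SE 0.42, 95% interval -0.69 to 1.54, limma's adjusted p 0.665), where 0.163% of probes passed and 16.2% had an unadjusted p under 0.05. HCC 1 lay 0.97 and HCC 2-2 0.36 above normal liver, and HCC 2-1 lay at -0.04. In the authors' processed values these were 3.29-fold, 2.71-fold and 1.42-fold above it, a mean log2 difference of 1.22 (SE 0.50). The 1.42-fold of HCC 2-1 is 0.50 on the log2 scale. The median of the 348 probes with these values was itself shifted by 0.32 between HCC and normal liver. This comparison shares the normal array with that of NT and the HCC arrays with that of HCC and NT, so it adds no separate evidence. Without HCC 1 the difference was 0.16, and without HCC 2-1 it was 0.66. MiR-34c in HCC differed from NT by -0.06 (SE 0.05, adjusted p 0.783) and from normal liver by -0.08 (SE 0.07, adjusted p 0.596). All 3 HCC arrays lay below normal liver in miR-34c, as they did for 30.8% of tested probes; they lay above it for 33%. As miR-34c passed the filter through normal liver and NT 1 alone, the filter favoured a lower value in HCC, and no fold is given.

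Other miRNAs tied to p53 were described by a list of 15 that p53 is known to induce or to help process, the 3 miR-34 members included. It held 14 with a probe and 13 tested. Between HCC and NT 4 were higher and 9 lower, with 0 called in either direction and a median of -0.06, against 0.00 over all probes. Across all tested probes 51.1% were higher and 48.9% lower. MiR-145, known from smooth muscle and from stellate cells, had the lowest difference (-0.80, SE 0.07, limma's adjusted p 0.0645). The miR-145 level was 7.41 in normal liver, 7.61 on the NT 1 array and 7.71 on NT 2, while HCC 1, 2-1 and 2-2 had 6.95, 6.84 and 6.78, all lower than both NT. MiR-34a was the next lowest. The highest were miR-107 (0.12, SE 0.10), which is known from lipid and insulin metabolism, and miR-200c of epithelium (0.06, SE 0.04), neither called.

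Between NT and normal liver, 8 of the 13 were higher and 5 lower, with 0 called and a median of 0.02 against 0.00 over all, where 48.6% of tested probes were higher and 51.4% lower. MiR-34a had the highest difference and miR-16, which restrains the cell cycle, the next (0.57, SE 0.15, limma's adjusted p 0.311). MiR-16 was at 8.66 in normal liver and 9.27 and 9.17 in NT 1 and 2. MiR-192 and miR-194, known p53 targets that are also abundant in hepatocytes, had the lowest (-0.71, SE 0.17, and -0.51, SE 0.19; adjusted p 0.295 and 0.387). MiR-192 was at 10.78 in normal liver and at 10.25 and 9.88 in NT 1 and 2. Members of the list thus lay on both sides of 0 in the comparison where miR-34a was higher. Against normal liver, HCC had 6 of 13 higher and 7 lower (52.2% and 47.8% of all tested probes), 0 called, with miR-34a and miR-16 (0.39) highest and miR-194 (-0.82) and miR-192 (-0.78) lowest.

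**Figure D4:**
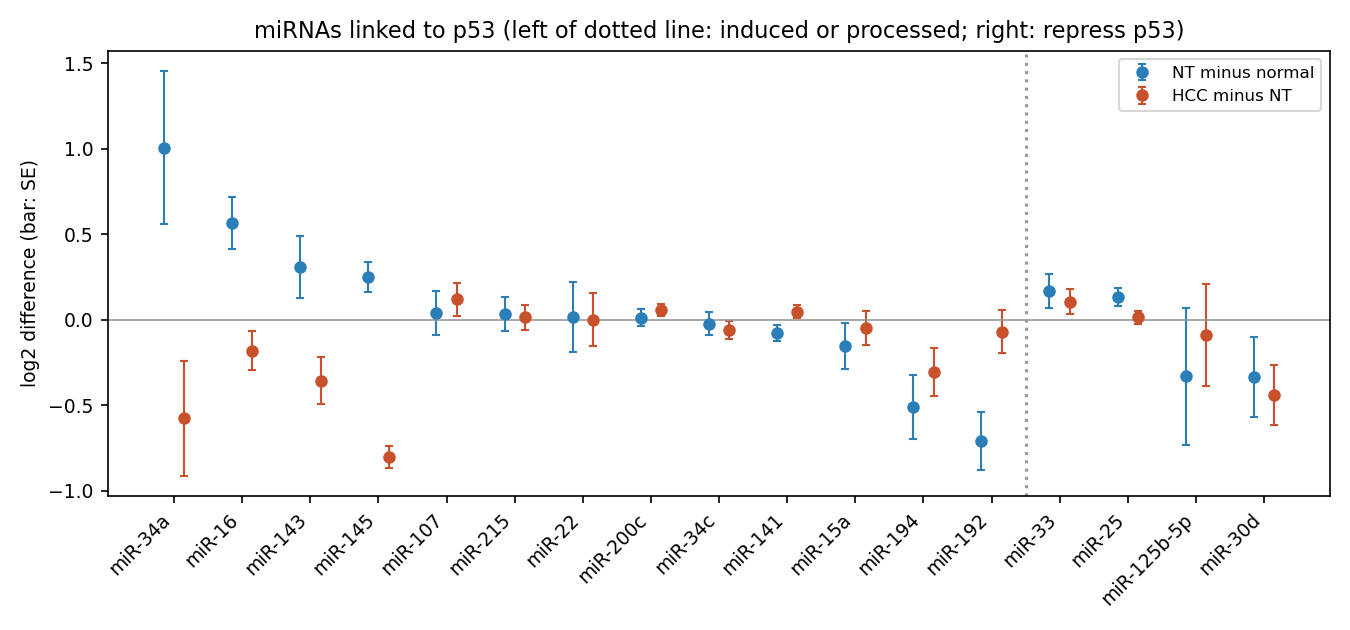
Log2 difference (dot) and SE (bar) of the tested miRNAs tied to p53, for NT minus normal liver (blue) and HCC minus NT (orange), which share the NT arrays; left of the dotted line those induced or processed through p53, right of it those that repress p53. MiR-34a is highest in blue (1.01), and miR-145 is lowest in orange (-0.80).

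Of 5 miRNAs known to repress p53 itself, 4 were tested and 0 called in any comparison, where 0% (HCC and NT) and 0.163% (NT or HCC against normal liver) of all tested probes were called. In each comparison 2 of the 4 were higher and 2 lower, while 48.6% to 52.2% of all tested probes were higher. Between HCC and NT, miR-33 (0.11, SE 0.07) and miR-25 (0.01, SE 0.04) were the higher pair and miR-30d (-0.44, SE 0.18) and miR-125b-5p (-0.09, SE 0.30) the lower. Between NT and normal liver, the same 2 were higher (0.17 and 0.13) and the same 2 lower (-0.34 for miR-30d and -0.33 for miR-125b-5p). In HCC against normal liver they stood at 0.27 for miR-33, 0.15 for miR-25, -0.42 for miR-125b-5p and -0.78 for miR-30d. MiR-504 was above background on 1 array.

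The tested probes whose log2 values most resembled miR-34a over the 6 arrays were miR-3103* (Pearson's r 0.976), miR-142-3p (0.966), miR-296-3p (0.908), miR-3103 (0.902) and miR-21 (0.893); the median r over all tested probes was 0.00. These 5 were picked for their r, so it is a description. Of them miR-142-3p, a miRNA of leukocytes, and miR-21, known to be raised in inflammation, fibrosis and tumours, were above background on all arrays. Over its 6 arrays miR-3103*, miR-296-3p and miR-3103 each varied by less than 0.1 on the log2 scale, near the blanks. MiR-142-3p was at 5.89 in normal liver, 6.17 on the NT 1 array, 6.11 on NT 2, 6.10 on HCC 1, 5.88 on HCC 2-1 and 6.04 on HCC 2-2. It was high in NT and low in normal liver and HCC 2-1, like miR-34a. MiR-21 was at 9.97 in normal liver, 10.99 on the NT 1 array, 10.78 on NT 2, 10.43 on HCC 1, 10.10 on HCC 2-1 and 10.43 on HCC 2-2. Without NT 1 and HCC 2-1, the arrays where miR-34a lay farthest from its median, r was 0.934 for miR-142-3p and 0.766 for miR-21. Within chip 2, HCC 1 minus NT 2 was -0.02 for miR-142-3p and -0.35 for miR-21, against 0.19 for miR-34a. For miR-34c the most similar were miR-3473d (0.956), miR-101a (0.927), miR-3068 (0.924), miR-30a* (0.902) and miR-323-5p (0.901), though the values of miR-34c itself lay at the blank level.

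**Figure D5:**
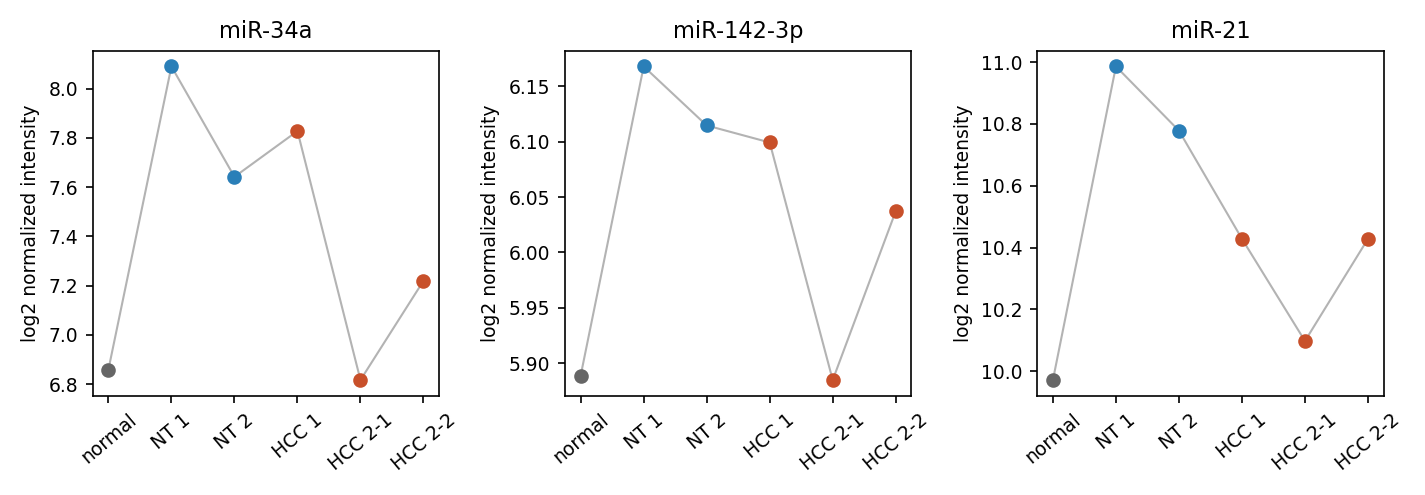
Log2 intensity of miR-34a, miR-142-3p and miR-21 on the 6 arrays (grey normal liver, blue NT, orange HCC), each on its own axis; lines only join the dots. In all 3 panels NT 1 is highest, and normal liver and HCC 2-1 are the lowest pair.

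The summed levels of leukocyte and of mesenchymal markers were, like the group mean of miR-34a, highest in NT. By array the order differed between lists. Both sums were higher in NT 2 (leukocyte 318, mesenchymal 487) than in NT 1 (245 and 394), whereas miR-34a was higher in NT 1. The sums of the other lists were, like miR-34a, higher in NT 1 than in NT 2. They were 1280 against 1241 for endothelium, 547 against 510 for erythroid, 8801 against 7184 for hepatocyte and 168 against 144.6 for bile duct miRNAs. The mesenchymal sums of all HCC arrays lay below normal liver, whereas the HCC mean of miR-34a lay above it. Of 7 leukocyte miRNAs, 6 were higher in NT than in normal liver and all 7 lower in HCC than in NT (over all tested probes, 48.6% were higher in NT and 48.9% lower in HCC), with a summed level of 138 in normal liver, 245 to 318 in NT and 170 to 218 in HCC (normalized intensity less the offset), and 0 called, against 0.163% of all probes between NT and normal liver and 0% between HCC and NT; 6 or 7 were above background on each array. Of 5 mesenchymal and stellate cell miRNAs, all 5 were higher in NT than in normal liver and all 5 lower in HCC than in NT, with sums of 287, 394 to 487 and 231 to 263, and 0 called. The same directions were seen for both endothelial and all 3 erythroid miRNAs, and all 7 hepatocyte miRNAs were lower in HCC than in NT too, with 1 of 7 higher in NT than in normal liver. Of 7 bile duct and epithelial miRNAs, 4 were higher in NT than in normal liver and 5 lower in HCC than in NT. Erythroid miRNAs summed to 42.8 in normal liver, 510 to 547 in NT and 411 to 551 in HCC, and hepatocyte miRNAs to 8641, 7184 to 8801 and 4846 to 8396. Endothelial miRNAs summed to 880, 1241 to 1280 and 735 to 1290, and bile duct and epithelial miRNAs to 191, 144.6 to 168 and 56.4 to 130. Of these lists miR-451, a red blood cell miRNA, was the single member called (NT minus normal liver 2.80, limma's adjusted p 0.0228, and HCC minus normal liver 2.73, adjusted p 0.0198). Neither call held without NT 1, NT 2, HCC 1 or HCC 2-2. The part of these cells in the levels of miR-34a was not tested.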

How the data were processed

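The deposited scanner files hold, per the file headers, the raw spot intensity at 635 nm, as a pixel median, beside that of the surrounding area, with no normalization recorded. The authors' deposited table of processed intensity values carries no account of its making in the sources used here; its columns each have a median of 25, and straight lines through values of 50 to 2000 against the spots reached 0 at spots of 11.7 to 17.3, near the blank means, so it is linear. How it was scaled is unknown. Its IDs matched all 1095 mouse probes used. In R 4.3.3 with limma 3.58.1, intensities were background-corrected by normexp (offset 50), taken to log2 and quantile normalized over 1095 mouse probes; 1 probe with a spot marked not OK was left out. Blank spots (1818 per array, 5% trimmed at each end) gave the detection threshold. The 613 probes above it on at least 2 arrays entered 1 limma model of 3 groups, with a moderated 2-sided test adjusted by Benjamini-Hochberg at 0.05 (3 residual degrees of freedom). The fit was tested on simulated data. The number of arrays limits the precision.

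Named probes are the miR-34 and miR-449 main strands, the miR-34 star arms, the 2 highest and 2 lowest tested members of each p53 list per comparison, and the 5 probes with the highest r. The members and lists were chosen with earlier results of these data known. Groups came from sample titles. Sequences and positions are from RefSeq (GRCm38.p6).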

Additional observations from a re-analysis of the deposited data

How the results depend on the processing

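MiR-34a in NT minus normal liver stayed above 0 in all 18 alternatives, from 0.78 to 2.15, and passed in 2, median scaling (1.16) and upper-quartile scaling (0.94). Settings that change only the filter, the prior or the HCC arrays cannot move this estimate from 1.01. Likewise, those that change only the filter, the prior or the NT arrays cannot move HCC minus normal liver from 0.43. The single normal array was never left out. HCC minus NT stayed below 0 in 18 of 19 and passed with median scaling (-0.57) and upper-quartile scaling (-0.70). It turned to 0.19 with the chip as a block, where it equals HCC 1 minus NT 2 on chip 2. HCC minus normal liver stayed above 0 in all 18, from 0.16 to 1.42, and passed with median scaling (0.58, adjusted p 0.0453). Leaving out 1 array moved these from 0.78 to 1.23, from -0.85 to -0.34 and from 0.16 to 0.66, none past the threshold. MiR-34c passed once, for HCC minus normal liver with upper-quartile scaling (-0.76, adjusted p 0.00802), where the median of all probes was -0.61 and 498 were called. It turned for NT minus normal liver without NT 2 (0.029; from -0.074 to 0.029 over the arrays left out) and under the chip block (0.029), and for HCC minus normal liver under the chip block (0.016). With the chip as a block, NT minus normal liver rests on NT 1 and the normal array of chip 1 alone, as it does without NT 2. HCC minus normal liver then adds the difference of HCC 1 and NT 2 on chip 2. With the replicate block on the label number, HCC minus NT was -0.47 for miR-34a (adjusted p 0.569) and -0.05 for miR-34c. The labels tie no numbers to animals, and the deviations of number 1 against 2 in NT and HCC correlated at 0.16 across probes; normal liver has no number to pair.

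Probes called for HCC minus NT were 0, against 20 with median scaling, 15 with upper-quartile scaling, 1 without a filter, 3 with limma's trended and robust prior and 1 with the spot's pixel mean. For NT minus normal liver they were 1, against 17, 9, 5 in the authors' values, 5 with the trended prior, and 0 with the chip as a block, the pixel mean or median scaling over all mouse probes. For HCC minus normal liver they were 1, against 39, 498, 14, 8, and 0 with the chip as a block or the pixel mean. Leaving out 1 array gave 0 for HCC minus NT; for the others it gave 0 without NT 1, NT 2, HCC 1 or HCC 2-2 and 1 without HCC 2-1. The pixel mean and the median over all mouse probes were chosen after seeing the data. MiR-34c has no authors' value on all arrays and is not above background on all 6, so these alternatives gave none. Signal over background limits miR-34c and its relatives, and the offset of 50 compresses miR-34a in normal liver.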
